A study of Mus musculus with 6 samples.

Results

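Passenger strands of microRNA (miRNA) hairpins, the entries whose array name ends in an asterisk, made up 115 of the 611 mouse miRNAs on the array. They were taken by that name alone, and no measured value enters this rule, though it was set with earlier results of these data known. The arrays were run on total RNA of bone-marrow-derived macrophages from female C57BL/6 mice, 3 control and 3 knockout samples. Knockout mice carried the genotype MxCre-RBP-Jf/f and controls MxCre-RBP-Jf/+, so both groups carried the Cre transgene, both had received poly(I)-poly(C) to induce it, and the controls, titled WT, were heterozygous for the floxed allele. Notch receptors act on their target genes through RBP-J, and the Mx promoter that drives Cre is active in many interferon-responsive cells, not in macrophages alone. Loss of RBP-J could not be checked on a miRNA array. Macrophages of both groups had been stimulated with lipopolysaccharide (LPS) for 24 h, and no unstimulated samples were used. Whether the samples of a group are different mice is not stated in the labels, and p-values measure only the spread between the samples, which may be technical.

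Most miRNA genes are transcribed into a hairpin that Drosha and Dicer cut to a short duplex. Argonaute usually keeps the guide strand, which pairs with messenger RNAs through its seed at bases 2 to 8, and the passenger strand is mostly degraded. Which strand is kept depends largely on the 5′ end of the duplex, and both strands of some hairpins are loaded. The asterisk records which arm was judged the minor one when the array was designed, and later names give the arm as 5p or 3p instead. Where both arms come from a single transcript, the ratio of passenger to guide separates a change in strand balance from a change in the whole hairpin. By later name let-7f* is let-7f-1-3p and miR-29b* is miR-29b-1-5p, but their guides let-7f-5p and miR-29b-3p carry no hairpin number. Other hairpins may add to those guides, so these ratios may not separate the changes.

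Of the 15 passenger strands detected on at least 1 array, 13 were matched by name to RefSeq's table of mature miRNAs (GRCm38.p6), 9 on the 3p arm and 4 on the 5p arm. miR-467a* and miR-467b* were not matched. The sequences below are those of the passenger strands whose ratio to the guide could be tested and of the groups that share a seed, with the seed in capitals.
let-7b*: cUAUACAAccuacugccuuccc
let-7f*: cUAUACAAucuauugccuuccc
let-7a*: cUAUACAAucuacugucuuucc
miR-24-1*: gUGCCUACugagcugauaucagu
miR-24-2*: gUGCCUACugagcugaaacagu
miR-22*: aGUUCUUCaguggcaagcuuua
miR-140*: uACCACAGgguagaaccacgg
miR-29b*: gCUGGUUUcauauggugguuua
miR-483*: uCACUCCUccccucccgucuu
The let-7 passenger strands shown share the seed UAUACAA, whereas their guides carry the let-7 seed GAGGUAG. let-7b* and let-7f* differ at 2 of 22 positions, C9U and C13U with the let-7b* base first and positions counted from the 5′ end. let-7a*, which was added to these sequences after its values were seen, differs from let-7f* at 3 positions. miR-24-1* and miR-24-2* share the seed UGCCUAC and are identical over their first 16 bases, so RNA from the hairpins of this pair may bind either probe and their values are uncertain as separate measurements.

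In the same assembly, miR-22* lies on chromosome 11 at chr11:75463734-75463755 on the plus strand, within the span of the non-coding gene Mir22hg. miR-140* lies at chr8:107551288-107551308 within the span of Wwp2, which encodes a ubiquitin ligase. miR-483* lies at chr7:142654932-142654952 on the minus strand within the span of Igf2, an insulin-like growth factor gene. let-7b* lies at chr15:85707379-85707400 within the span of the non-coding gene Lncppara. let-7f* and let-7a* come from neighbouring hairpins at chr13:48537833-48537854 and chr13:48538188-48538209, within no coding or long non-coding gene of the table. The tables do not give exons, so exonic and intronic positions were not assigned.

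Few passenger strands were detected, and their number per array overlapped between genotypes. A miRNA was detected on an array when at least 50% of the spots of any of its probes were flagged well above background by the scanner software. By this rule 10, 10 and 13 passenger strands were detected on control arrays 1, 2 and 3, and 9, 13 and 11 on those of the knockout. The mean was 11 in both groups, with an SD of 1.73 for the controls and 2.00 for the knockouts (n = 3 each). On the same arrays 119 to 125 of the other 496 miRNAs were detected in control and 117 to 128 in knockout. Over all arrays 15 passenger strands were detected on at least 1, 6 on all of them and 100 on none. The 12 detected on at least 3 of 6 arrays, 10.4% of the passenger strands, were tested between genotypes, against 123 of the other miRNAs, or 24.8%. Passing this filter rests on signal, so the 12 do not stand for all members.

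The software's own gene-level call was less strict. It called 14, 16 and 17 passenger strands in control and 14, 16 and 15 in knockout. It added 4 strands that the spot rule found on no array. Among these, miR-17* of the miR-17 polycistron and miR-29c* were called on 5 arrays each, while miR-29a* and miR-378* were called on 1 each. The unscaled total intensity of miR-17* was 8.34, 7.71 and 9.48 units in control and 4.82, 4.61 and 5.92 in knockout. All knockout totals lay below all control totals, as did those of 14.9% of the 611 mouse miRNAs before scaling, and the knockout arrays were the dimmer ones. After scaling miR-17* was at the floor on all arrays, and it was not tested. For miR-29c* the totals lay between 7.63 and 11.3 units and overlapped between groups. The totals of the 100 strands detected on no array by the spot rule ran from -4.77 to 11.3 units, with a median of -0.506.

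The arrays held the guides listed as markers of macrophages and granulocytes, a list that does not separate these cell types. All 6 macrophage and granulocyte markers, miR-223, both arms of miR-142, miR-155, miR-146a and miR-21, were detected on every array. Their summed total intensity ran from 33500 to 39990 units in control and from 21810 to 31450 in knockout. None of the 2 lymphoid, 3 erythroid or platelet, 2 endothelial, 5 stromal, 6 epithelial and 3 muscle markers on the array was detected on any array, and no such list summed to more than 13.2 units. In this bulk RNA, fewer cells of a type and less RNA per cell cannot be told apart. The knockout arrays were also dimmer. The 75th percentile of detected probes, by which each array was scaled, was 287.8, 242.6 and 352.3 intensity units in control and 227.1, 186.3 and 225.7 in knockout.

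**Figure D1:**
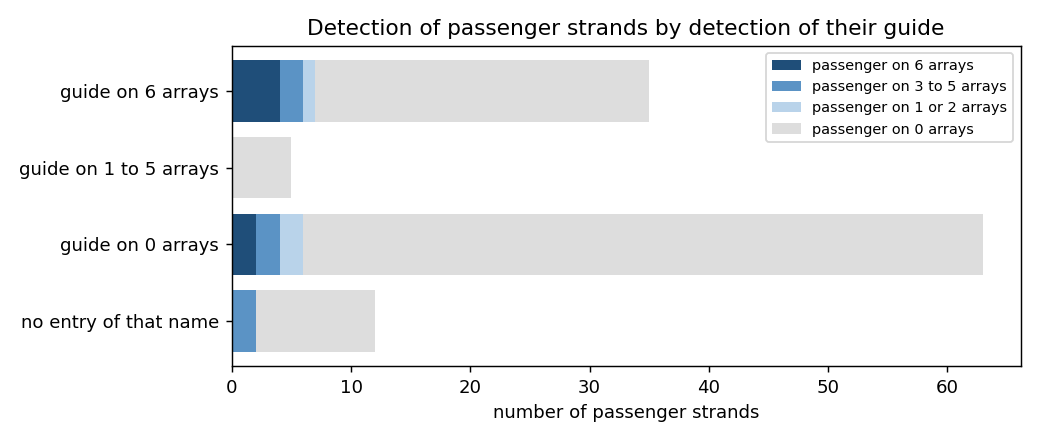
Number of passenger strands (x axis) by how many of the 6 arrays detected the guide of the same name (rows), coloured by how many arrays detected the passenger strand. Of 35 passenger strands whose guide was detected on all arrays 7 were detected, and of 63 whose guide was detected on none 6 were.

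A detected guide seldom came with a detected passenger strand. An entry of the same name without the asterisk was on the array for 103 of the 115. Of 35 passenger strands whose guide was detected on all 6 arrays, 7 (20%) were detected on at least 1 array and 28 on none. Of 63 whose guide was detected on no array, 6 (9.52%) were detected, and of 5 whose guide was detected on 1 to 5 arrays, 0 were. These shares are descriptions, since the bars in the plot of detection by guide count strands and not samples.

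miR-21 is an example. The guide, the miRNA of the Vmp1 locus that macrophages raise on activation, had log2 signals of 6.73 to 7.06 relative to the array's 75th percentile. By the spot rule its passenger strand miR-21* was detected on control array 3 alone, and by the software's gene-level call on 5 of 6 arrays, with total intensities of 1.82 to 5.96 units, where those of miR-21 ran from 19360 to 35240. The let-7 family behaved unevenly: 2 of its 7 passenger strands, let-7b* and let-7f*, were detected on all arrays, and the other 5 on none. let-7a* shares their seed, and its guide let-7a had log2 signals of 2.21 to 2.40, yet its total intensity stayed between 1.61 and 3.83 units. let-7i*, whose guide stood at 2.12 to 2.35, reached 0.51 units at most. Other bright guides with no passenger strand detected by the spot rule were miR-27b at 1.33 to 2.28, miR-16 at 1.59 to 1.84 and miR-29a at 1.66 to 2.22.

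The reverse pattern, a detected passenger strand beside a guide detected on no array, was seen for 6 hairpins. miR-674* and miR-877* were detected on all arrays, miR-191* on 5, miR-467a* on 4, and miR-467b* and miR-135a* on 1 each. The sequence of miR-877*, whose hairpin lies within the span of Abcf1, is shown with that of its guide for their base composition.
miR-877*: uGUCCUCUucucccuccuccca
miR-877: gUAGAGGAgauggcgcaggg
miR-877* is 90.9% pyrimidine and miR-483* 90.5%, where the median of 1674 distinct mature mouse sequences in the table is 50%. Of those sequences, 0.299% are as pyrimidine-rich as miR-483*. The total intensity of miR-877* was 29.7, 16.9 and 27.2 units in control and 22.8, 24.1 and 21.4 in knockout, while the guide entry reached 3.21 units at most. All 4 probes of miR-877* were detected on all 6 arrays, so the signal did not come from a single probe. For miR-674* 2 of 3 probes were, whereas for miR-191* 1 of 4 probes was detected on 5 arrays and the others on 0 or 1.

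No passenger strand passed the test between genotypes. limma called 0 of the 12 at an adjusted p under 0.05, as it called 0 of all 135 tested miRNAs (0%), and 0 of the 12 had an unadjusted p under 0.05, against 6 of 135. Knockout minus control, 8 of the 12 were above 0 and 4 below, and over all tested miRNAs 97 were above and 38 below. These splits moved with the scaling. With no scaling 2 of the 12 were above 0 and 10 below, against 14 and 121 of all tested miRNAs. With all mouse probes as the reference they were 7 and 5, against 60 and 75, with quantile scaling 6 and 6, against 72 and 62, and with normexp background correction 11 and 1, against 112 and 23. The median of the 12 was 0.16 on the log2 scale and that of all tested miRNAs 0.11. Without knockout replicate 2 the passenger median was 0 and that of all tested miRNAs 0.09. With no scaling between arrays the passenger median was -0.17 and that of all tested miRNAs -0.31. Quantile scaling gave 0.014 for the passenger strands and 0.015 for all tested miRNAs, and a lower floor for dim values gave 0.32 and 0.14.

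**Figure D2:**
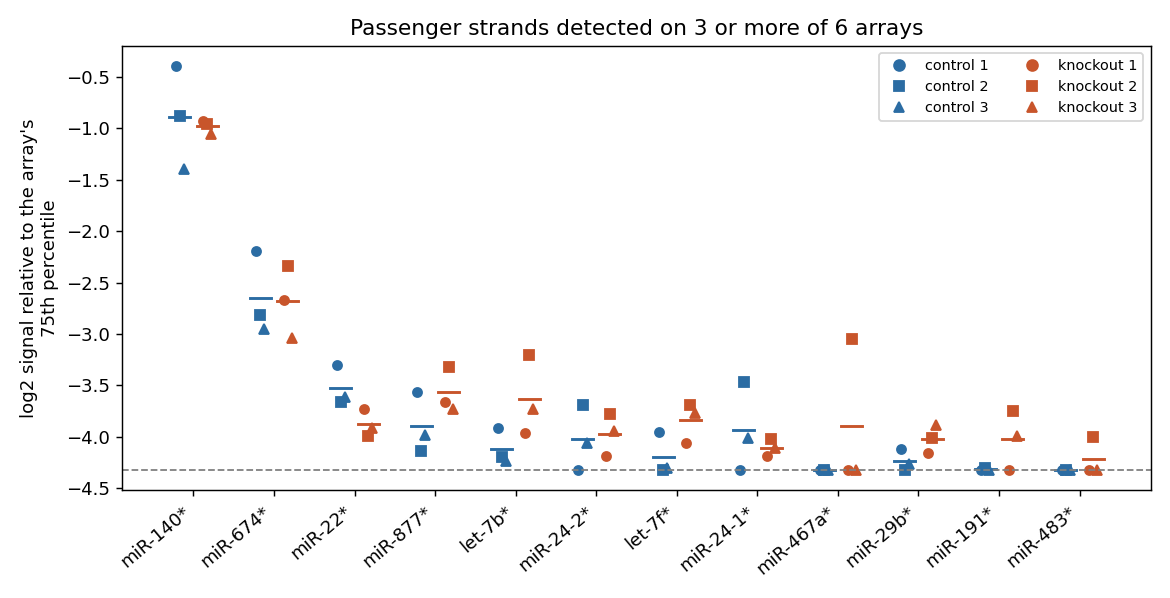
Log2 signal relative to the array's 75th percentile (y axis) of the 12 passenger strands detected on 3 or more arrays, with 1 point per array, horizontal bars for group means and a dashed line at the floor of -4.32. Only miR-22* has all knockout points below all control points, and miR-467a* is above the floor on knockout array 2 alone.

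miR-22*, the 5p strand of a hairpin whose guide is a broadly expressed miRNA, had the lowest fitted difference. Its log2 signals were -3.30, -3.66 and -3.61 for control replicates 1, 2 and 3 and -3.73, -3.99 and -3.92 for the knockout replicates. All knockout values lay below all control values, the only such case among the 12, where the groups did not overlap for 10.4% of all tested miRNAs. The control mean was -3.53 ± 0.20 (SD, n = 3). The knockout mean was -3.88 ± 0.14 (SD, n = 3). The difference was -0.35 (SE 0.17; 95% interval -0.75 to 0.04), a control signal 1.28-fold that of the knockout, with a limma adjusted p of 0.637. Relative to the median miRNA it was -0.46. Its unscaled totals were 30.7, 17.9 and 28.1 units in control and 16.7, 12.2 and 15.6 in knockout. On that scale the knockout lay wholly below the control for 28.1% of the 135 tested miRNAs, and the scaling factors of the arrays separated in the same direction. The direction was not the same in every setting: with normexp background correction and its offset of 50, miR-22* stood at 0.18.

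let-7b* and let-7f* had higher mean signals in knockout, but the groups overlapped. let-7b* stood at -3.92, -4.20 and -4.23 in control and -3.97, -3.20 and -3.73 in knockout. Knockout arrays 2 and 3 were thus above every control and knockout array 1 was not. The difference was 0.48 (SE 0.22; 95% interval -0.03 to 0.99; limma adjusted p = 0.637), and 0.27 without knockout replicate 2. With no scaling between arrays it was 0.03, and the unscaled totals were 23.0, 16.5 and 24.5 units in control and 20.0, 21.1 and 20.4 in knockout.

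let-7f* followed the same arrays, at -3.95, -4.32 and -4.31 in control and -4.06, -3.69 and -3.77 in knockout. Its difference was 0.36 (SE 0.18; 95% interval -0.06 to 0.78; limma adjusted p = 0.637), which turned to -0.12 with no scaling. As their sequences differ at 2 positions, let-7b* and let-7f* may share signal and may not be independent measurements. Shared signal was not tested.

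miR-140*, the 3p strand of a hairpin best known from cartilage, did not differ beyond its spread. Its log2 signals were -0.39, -0.88 and -1.40 in control and -0.92, -0.96 and -1.06 in knockout. Control arrays 1 and 3 lay on either side of the knockout arrays, which were close together. The difference was -0.09 (SE 0.25; 95% interval -0.66 to 0.48; limma adjusted p = 0.892), and without control replicate 1 it was 0.16. Its total intensity ran from 82.5 to 187.5 units.

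miR-674* stood at -2.19, -2.81 and -2.95 in control and -2.67, -2.34 and -3.04 in knockout, and differed by -0.03 (SE 0.26; 95% interval -0.62 to 0.56). Control array 1 and knockout array 2 were the high ones. miR-877* stood at -3.57, -4.14 and -3.98 in control and -3.66, -3.32 and -3.73 in knockout, a difference of 0.33 (SE 0.21; 95% interval -0.14 to 0.80) that was -0.13 with no scaling. Its groups overlapped through control array 1.

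The passenger strands of the miR-24 hairpins, whose common guide miR-24 is abundant in macrophages, did not differ beyond their spread. miR-24-1* stood at -4.32, -3.47 and -4.01 in control and -4.19, -4.02 and -4.11 in knockout. miR-24-2* stood at -4.32, -3.69 and -4.06 in control and -4.19, -3.78 and -3.94 in knockout. Both were lowest on control array 1 and highest on control array 2, and their differences were -0.17 (SE 0.23) and 0.06 (SE 0.21). miR-29b*, from the hairpin of the collagen-targeting miR-29b, was at -4.12, -4.32 and -4.27 in control and -4.15, -4.02 and -3.88 in knockout, a difference of 0.22 (SE 0.16) that was -0.21 with no scaling. Of its 4 probes only the brightest was detected, on 5 arrays, and its total intensity ran from 3.28 to 8.10 units. For miR-24-1* too, only the brighter of 2 probes was detected.

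The floor, the value to which dim signals were raised, held 3 of the 6 array values of miR-191* and 5 of 6 for both miR-467a* and miR-483*. miR-191* was highest on knockout arrays 2 and 3, at -3.75 and -4.00, with a difference of 0.29 (SE 0.18) that turned to -0.08 with no scaling. miR-467a*, of the large miRNA cluster within Sfmbt2, was above the floor on knockout array 2 alone, at -3.05, so its difference of 0.43 (SE 0.33) was 0 without that array. It was flagged as detected on all 3 control arrays and 1 knockout array, the opposite of that fitted sign. miR-483* was also above the floor on knockout array 2 alone, at -4.01, and differed by 0.11 (SE 0.16). Only the brighter of its 2 probes was detected, on 3 arrays. Detection and fitted sign were likewise opposed for miR-191*, flagged on 3 control and 2 knockout arrays, and for miR-483*, on 2 control and 1 knockout. For miR-24-1* they were opposed the other way, with 2 control and 3 knockout arrays.

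**Figure D3:**
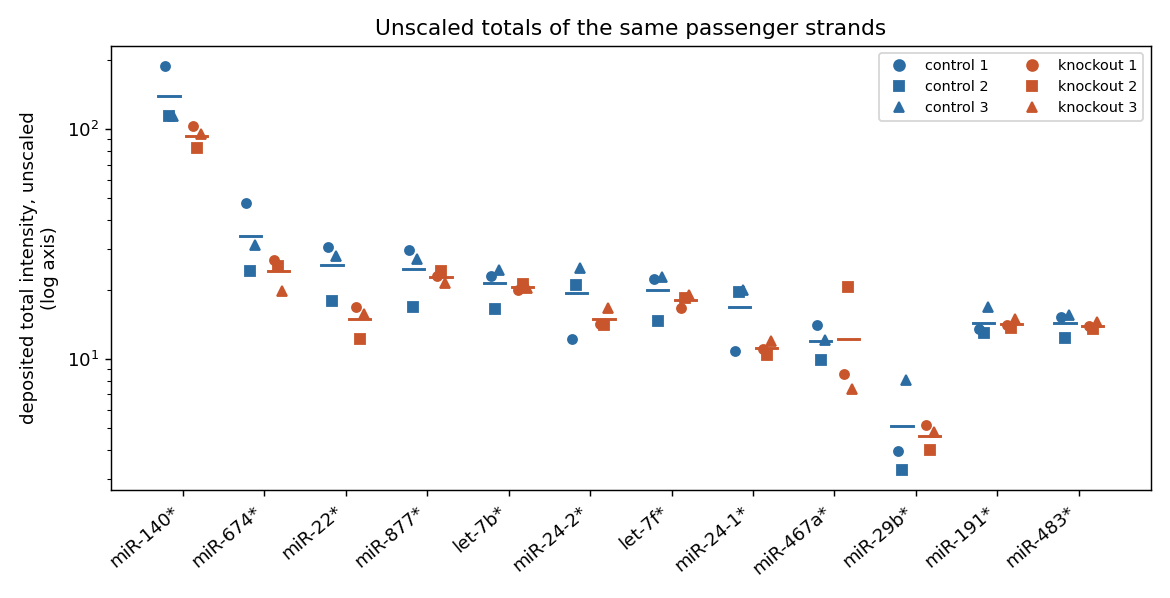
Deposited total intensity before any scaling (y axis, log scale) of the same 12 passenger strands, with 1 point per array and bars for group means. miR-483* and miR-191* lie at nearly the same intensity on all arrays, while miR-22* and miR-140* are lower on each knockout array than on each control array, as were 28.1% of all tested miRNAs before scaling.

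Before scaling, miR-483* and miR-191* varied little between arrays of different brightness. The scaling factor itself spanned 1.89-fold from the lowest to the highest array, as did the total of the median tested miRNA. The total of miR-483* spanned 1.25-fold, from 12.3 to 15.4 units, and only 1 other tested miRNA spanned less. That of miR-191* spanned 1.30-fold, from 12.9 to 16.8 units. In contrast, miR-22* spanned 2.50-fold and miR-140* 2.27-fold. The smallest factor, 186.3, belonged to knockout array 2, on which let-7b*, let-7f*, miR-191*, miR-467a*, miR-483* and miR-877* had their highest scaled values. Of these, only miR-467a* was also highest there before scaling, at 20.6 units against 7.37 to 14.1 on the other arrays. With no scaling its difference was 0.13. The part of the scaling in these differences was not tested. As a share of all mouse miRNA signal on an array, passenger strands made up 0.805%, 0.57% and 0.633% in control. In knockout they made up 0.597%, 0.746% and 0.619%, and the groups overlapped. Without miR-140* the shares were 0.523%, 0.389% and 0.486% in control and 0.421%, 0.565% and 0.448% in knockout. Negative totals were left out of these sums.

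No pair of arms that could be tested passed the test of a genotype difference in its ratio. A ratio was tested when both arms were detected on at least 3 of 6 arrays, which left 6 of 103 passenger pairs. They were fitted together with the 4 testable pairs of 5p and 3p entries, those of miR-142, miR-290, miR-342 and miR-532. limma called 0 of the 10 pairs (0%) at an adjusted p under 0.05, and 0 had an unadjusted p under 0.05. The smallest adjusted p was 0.929, and the groups overlapped in all 10 pairs, so that 0% were separate. The median difference was 0.04 for the 6 passenger pairs, 3 above and 3 below 0, and -0.02 for all 10. Without control replicate 1 the passenger median was 0.26. For 5 of the 6 the 95% interval excluded a 2-fold change of the ratio, and miR-483* was the exception. For let-7b*, let-7f*, miR-22* and miR-29b* the control mean signals were -4.116, -4.195, -3.526 and -4.239, all within 2-fold of the floor of -4.32. A 2-fold fall of these strands could not have registered in full, so the intervals do not bound it. A single factor per array cancels in these ratios where neither arm is at the floor, but the level of a ratio holds the response of both probes and is not a share of strands.

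**Figure D4:**
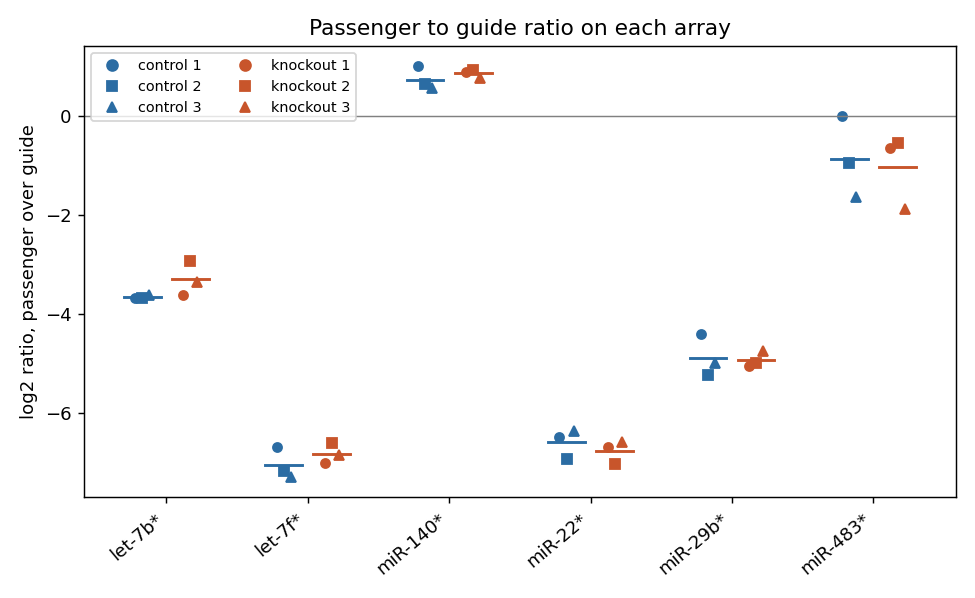
Log2 ratio of passenger to guide signal (y axis) for the 6 passenger pairs with both arms detected on 3 or more arrays, with 1 point per array and bars for group means. miR-140* is above 0 on every array, from 0.58 to 1.01, and the 2 groups overlap in every pair.

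For let-7b*, the log2 ratio to let-7b was -3.68, -3.67 and -3.60 in control and -3.62, -2.93 and -3.34 in knockout. The 3 control arrays lay close together, with an SD of 0.04, while the knockout SD was 0.35. The difference was 0.35 (SE 0.21; 95% interval -0.12 to 0.83; limma adjusted p = 0.929; two-sided exact permutation p = 0.2, where 3 against 3 arrays cannot go below 0.1), and without knockout replicate 2 it was 0.17. let-7b itself differed by 0.13 (SE 0.17).

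For let-7f*, the ratio to let-7f was -6.67, -7.17 and -7.29 in control and -7.00, -6.60 and -6.84 in knockout. Control array 1 lay among the knockout values, and the difference was 0.23 (SE 0.22; 95% interval -0.26 to 0.72). In the authors' series matrix it was -0.13.

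For miR-22*, the ratio to miR-22 was -6.49, -6.92 and -6.35 in control and -6.68, -7.03 and -6.58 in knockout. The groups, separate for miR-22* alone, overlapped in the ratio. The fitted difference of miR-22 itself was -0.18 (SE 0.20). The ratio differed by -0.17 (SE 0.22; 95% interval -0.66 to 0.31; limma adjusted p = 0.929). With normexp it turned to 0.42 and passed the threshold (limma adjusted p = 0.0492), where miR-22* stood at 0.18 and miR-22 at -0.25. With quantile scaling it was -0.61 (limma adjusted p = 0.158).

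miR-140* was the 1 tested passenger strand whose ratio was above 0 on every array. It was 1.01, 0.65 and 0.58 in control and 0.90, 0.94 and 0.79 in knockout, within the control range on all 3 knockout arrays. The difference was 0.13 (SE 0.20; 95% interval -0.30 to 0.56), with miR-140* at -0.09 and miR-140 at -0.22.

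For miR-29b*, the ratio to miR-29b was -4.41, -5.23 and -4.98 in control and -5.04, -4.98 and -4.75 in knockout, and differed by -0.05 (SE 0.24; 95% interval -0.57 to 0.47). For miR-483*, which was at the floor on 5 of 6 arrays, the ratio mirrored the guide miR-483. It ran from -1.86 to 0 and differed by -0.16 (SE 0.42; 95% interval -1.09 to 0.77). The value of 0 was that of control array 1, where both arms were at the floor, so it does not show equal arms. The 4 pairs of 5p and 3p entries differed by -0.06 to 0.13. Set against their common guide miR-24 in a fit of 12 pairs, the ratio of miR-24-1* differed by -0.12 (SE 0.24) and that of miR-24-2* by 0.11 (SE 0.23).

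**Figure D5:**
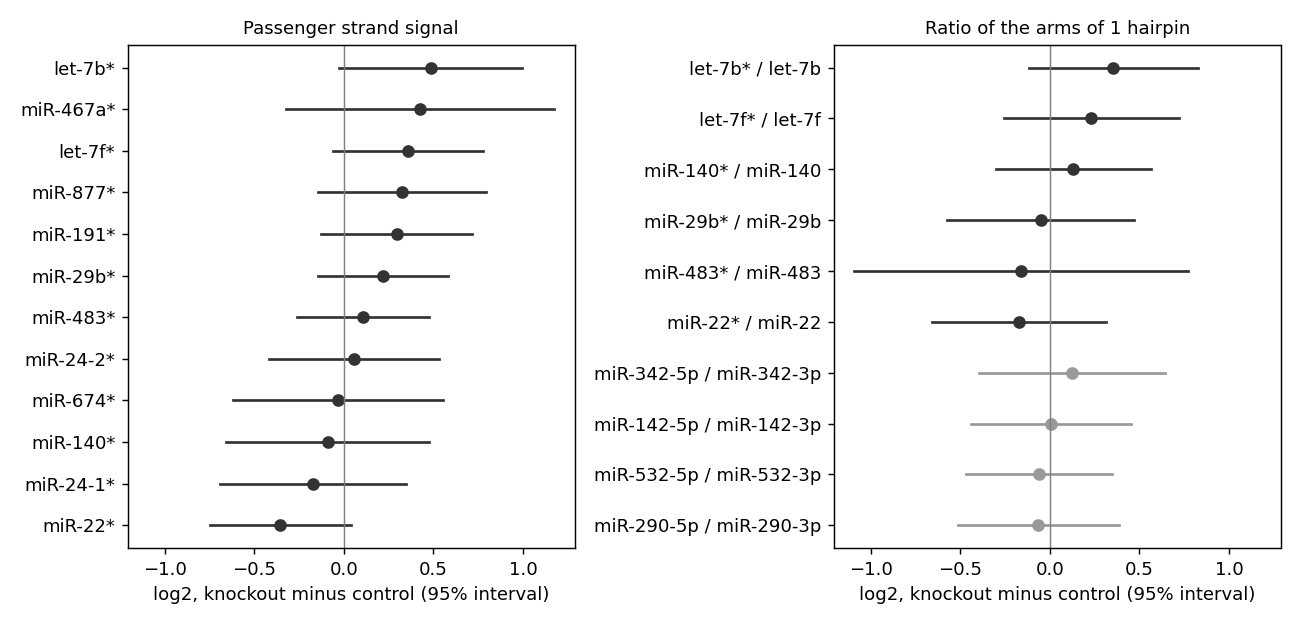
Fitted log2 difference, knockout minus control (x axis), with its 95% interval, for the signal of the 12 tested passenger strands (left) and for the ratio of the arms in 10 hairpin pairs (right), where passenger pairs are black and 5p to 3p pairs grey. Every interval includes 0, from let-7b* at 0.48 to miR-22* at -0.35 on the left.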

How the data were processed

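The deposited intensity of each spot had its background subtracted and was detrended, per the file headers, by Agilent Feature Extraction 10.5.1.1. The version in the submitters' processing notes is 9.1. The deposited gene tables hold total intensities per miRNA and detection calls, and the authors' series matrix holds log2 values of unstated processing. These correlated at 0.999 with log2 of the totals, over the brighter totals only, a cut that leaves out most passenger strands. The column medians of the matrix were 0 to 0.029.

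Per probe, the median processed intensity over 3 to 20 unflagged spots was divided by the array's 75th percentile over the 200 probes detected on all arrays, set to at least the 5th percentile of detected signals (the floor, log2 -4.32) and log2 transformed. A miRNA took its brightest probe. Passenger strands were the names ending in an asterisk, and guides the same names without it. Array names were matched to later arm names by hand. limma 3.58.1 in R 4.3.3 (lmFit and eBayes, no covariate) was fitted to all 135 miRNAs and separately to 10 arm ratios, with Benjamini-Hochberg adjustment at 0.05. The fits were also run on simulated data, and no result here rests on that run. The variance prior of the ratios rests on 10 pairs. Every tested passenger strand and its guide is named, as are strands detected beside an undetected guide. The members, lists and rules were chosen with earlier results of these data known. All 6 arrays lay on 1 slide. Knockout arrays directly followed control arrays in slide row, so row and genotype cannot be told apart. The number of arrays limits the precision. Alternatives are given in the closing section.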

Additional observations from a re-analysis of the deposited data

How the results depend on the processing

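Leaving out each array in turn, the count of called passenger strands stayed at 0 and that of arm pairs at 0, the median passenger difference ran from 0 (without knockout replicate 2) to 0.24 (without control replicate 1), and the median ratio difference from -0.059 to 0.26. The median passenger difference was -0.17 with no scaling, 0.014 with quantile scaling, 0.32 with the floor at the 1st percentile and 0 with no filter on dim miRNAs, where most values were at the floor and the fit is unreliable. With normexp 1 arm pair was called, that of miR-22* at 0.42; the cause was not tested. Detected passenger strands per array averaged 15.3 by the gene-level call and 7 when every spot had to be flagged. The arrays did not settle whether the replicate numbers pair them (correlations of deviations 0.174, -0.072 and 0.373 for replicates 1, 2 and 3). The control arrays of replicates 1 and 3 correlated best with the knockout array of their own number, and that of replicate 2 did not. With the numbers as a replicate block 0 passenger strands and 0 pairs were called. The slide column as a block also gave 0 and 0, and the median difference was 0.15 within column 1 and 0.19 between the 2 arrays of column 2. Robust and trended variances gave 0 calls.

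Among values of single strands or ratios under the alternatives, 41 turned in sign and 311 did not. With normexp these were miR-22* at 0.18, miR-24-1* at 0.28 and miR-674* at 0.16, and the ratios of miR-140* at -0.021, miR-22* at 0.42, miR-29b* at 0.10 and miR-483* at 0.034. With no scaling they were let-7f* at -0.12, miR-191* at -0.081, miR-24-2* at -0.33, miR-29b* at -0.21, miR-483* at -0.017 and miR-877* at -0.13, and the ratio of miR-483* at 0.12. miR-24-2* stood at -0.16 when scaled over all probes, at -0.18 after quantile scaling and at -0.12 from the series matrix, and miR-483* at -0.0071 with quantile scaling. The ratio of miR-29b* was 0.0468 when scaled over all probes and 0.0466 with the lower floor, and that of miR-483* was 0.0040 with the lower floor, 0.17 from gene-level totals and 0.039 in the series matrix. There the ratio of let-7f* was -0.13, and from gene-level totals miR-29b* was at -0.031. Leaving out 1 array in turn gave -0.34 to 0.16 for miR-140*, -0.37 to 0.061 for miR-24-1*, -0.09 to 0.22 for miR-24-2* and -0.20 to 0.20 for miR-674*, and ratios of -0.23 to 0.18 for miR-29b* and -0.55 to 0.27 for miR-483*. 1 further setting, chosen after seeing the data, dropped control replicate 1 together with knockout replicate 2. There 0 strands and 0 pairs were called, miR-24-1* stood at -0.41, miR-140* at 0.15, miR-674* at 0.03 and miR-24-2* at -0.19, and the ratios of miR-22*, miR-29b* and miR-483* at 0.011, 0.21 and 0.03. Signal near background limits most passenger strands: 17 of 72 array values of the 12 tested were at the floor.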
